A study of Homo sapiens with 5 samples.

Results

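The genes described here are the histone genes named on an expression array, 80 of the 20041 genes with a named probe. A gene was a member if its symbol in the array's annotation began with H1-, H2AC, H2BC, H3C or H4C and a number, or was H2AZ1, H2AZ2, H2AX, H2AJ, H3-3A, H3-3B, MACROH2A1 or MACROH2A2. The rule reads symbols and no measured value, though it was drawn up with earlier results of these data known. The 80 genes were read by 94 probes, and 1 further probe carried the symbols of 2 histone H3 genes and was left out. Of the members, 68 are replication-dependent genes with 77 probes, 8 are variants with 13 probes and 4 are other linker histone genes with 4 probes.

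Histones are the proteins around which DNA is wound: the core histones H2A, H2B, H3 and H4 form the nucleosome and the linker histone H1 binds where DNA enters and leaves it. Replication-dependent histone genes lie in clusters, are transcribed mainly while a cell copies its DNA, and make mRNAs that usually end in a stem-loop bound by the protein SLBP in place of a poly(A) tail. Variant genes such as H3-3A, H2AZ1 and MACROH2A1 are transcribed outside DNA replication too, make polyadenylated mRNAs and supply histones that replace the replication-dependent ones at particular places. Some replication-dependent genes, H2BC12 and H2BC21 among them, are known to make a polyadenylated mRNA as well, above all in cells that leave the cell cycle.

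RNA came from H1, an established line of human embryonic stem cells, grown on Matrigel in E8, a chemically defined medium for pluripotent cells. There were 5 Illumina BeadChip arrays, 1 for each of 5 conditions: E8 at day 2, E8 with 16 mM added pyruvate at day 2, E8 with BMP4 at day 2, E8 with BMP4 and 16 mM added pyruvate at day 2, and the last mixture at day 6. BMP4 is a secreted signal that moves pluripotent cells towards mesoderm, pyruvate is the end product of glycolysis, and the labels give no dose of BMP4. The series title asks whether extra pyruvate raises mesodermal differentiation.

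With 1 array a condition there is no error between cultures, so the differences have neither a replicate check nor a p-value. Values are log2 of the background-corrected, quantile-normalized signal. A probe counted as detected at a detection p under 0.01. The size rule called a gene higher or lower where 2 arrays differed by at least 1 on the log2 scale (2-fold) and the brighter of them detected the gene. It is not a test. Where a gene was not detected on the dimmer array its fold is a bound, written "at least". The rule reads the measured value there, so the bound of a called gene can be under 2-fold. Levels are compared between arrays for the same probe and never between probes.

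The arrays detected 16661 to 18982 probes, and the day 2 array of BMP4 plus pyruvate was the lowest of the 4 day-2 arrays for 39.1% of the 9239 genes detected on all 5. Among all 5 arrays, that array was the lowest for 27.5% of these genes and the highest for 24.1%. The day 6 array was the lowest for 34.5% and the highest for 31.4%, so an extreme value on either array was common. All 8 pluripotency markers with a probe were detected on the 4 day-2 arrays, and NANOG and SOX2 were undetected at day 6. The mesoderm markers detected were 1 of 7 in E8, 0 with pyruvate, 4 with BMP4, and 6 on both arrays of BMP4 plus pyruvate. The summed linear signal of the pluripotency markers was 58633.0 in E8 and 11406.6 at day 6, and that of the mesoderm markers 243.764 and 26477.3. These sums take in undetected genes and are led by the brightest probes, for mesoderm at day 6 HAND1 (log2 13.96) and EOMES (13.07). At day 6, 3 of 3 endoderm, 3 of 5 trophoblast, 4 of 5 fibroblast and 1 of 4 neuroectoderm markers were detected too, against 0, 0, 4 and 2 in E8. The part of such a change in cell types in the histone results was not tested, and in bulk RNA fewer cells of a type and less RNA per cell cannot be told apart.

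Most replication-dependent histone genes were not detected. Of the 68, 22 were detected on 1 or more arrays, 11 on all 5, and 46 on none. Detection reached 4 of 5 H1 genes, 5 of 17 H2A genes, 5 of 18 H2B genes, 3 of 13 H3 genes and 5 of 15 H4 genes. All 8 variants were detected on all 5 arrays. Per array, 21 replication-dependent genes were detected in E8, 17 with pyruvate, 13 with BMP4, 17 with BMP4 plus pyruvate at day 2 and 14 at day 6. Over all probes, 35.2% to 40.1% were detected per array, a share of probes and not of genes. Some members missed the cut narrowly, such as H4C14 and H1-4, with a detection p of 0.0104 and 0.0117 with pyruvate. The labels name the kit that made the labelled cRNA but not whether it reached RNA without a poly(A) tail, and a probe that is undetected does not show that its gene is silent. Histone genes of a family are alike in sequence, so a probe may also have bound RNA of a near copy (H2AC18 and H2AC19 are such a pair), and the probe sequences were not used here.

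The heat map of differences from E8 shows the 22 detected genes together.

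**Figure D1:**
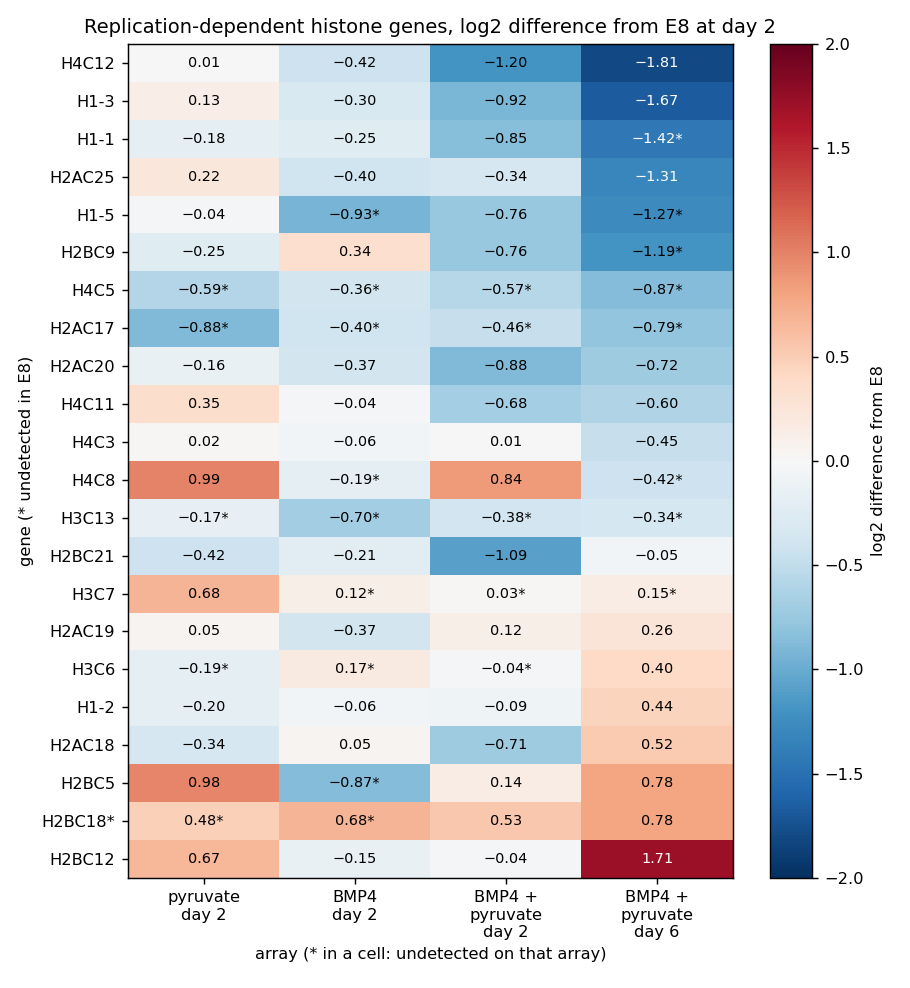
Log2 difference from E8 at day 2 (colour and printed number) for the 22 replication-dependent histone genes detected on 1 or more arrays, 1 column per array and 1 array per condition. A star in a cell marks an array where the gene was undetected, and a star after a name marks a gene undetected in E8. At day 6 H4C12 (-1.81) and H1-3 (-1.67) are the lowest cells and H2BC12 (1.71) is the highest.

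The linker histone genes differed among themselves. H1-3 gave a log2 signal of 7.76 in E8, 7.89 with pyruvate, 7.46 with BMP4, 6.84 with BMP4 plus pyruvate at day 2 and 6.09 at day 6. It was detected on every array, was lower on both arrays of BMP4 plus pyruvate than on the other 3, and lowest at day 6, where it was 3.18-fold lower than in E8. H1-1 gave 7.22 in E8, 7.04 with pyruvate, 6.97 with BMP4 and 6.37 with both, and 5.79 at day 6, where it was undetected. Its order over the arrays was close to that of H1-3, with the same 2 arrays at the bottom, and at day 6 it was at least 2.55-fold lower than in E8. H1-5 gave 6.50 in E8, 6.46 with pyruvate and 5.73 with BMP4 plus pyruvate at day 2, and was undetected at 5.56 with BMP4 and at 5.22 at day 6. It was highest on the 2 arrays without BMP4 and at least 1.55-fold lower at day 6 than in E8. H1-2 went the other way, with 9.05 in E8, 8.85 with pyruvate, 8.99 with BMP4, 8.95 with both and 9.49 at day 6. Its day 6 value was the highest of the 5, 0.44 above E8, and did not pass the size rule. H1-4 was undetected throughout.

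The 200 bases before the annotated start of these 4 H1 genes are printed because they hold the motif by which H1 promoters are known, and so show what H1-1, H1-3 and H1-5 share with H1-2, which did not differ past the size rule. The sequences are from RefSeq (GRCh38.p14), each read on the minus strand of chromosome 6 and written 5′ to 3′ along the gene: H1-1 at chr6:26017788-26017987, H1-3 at chr6:26234988-26235187, H1-5 at chr6:27867589-27867788 and H1-2 at chr6:26056471-26056670. Capitals mark the H1 box (AAACACA), the CCAAT box (CCAAT) and the TATA box (TATAAA), each searched on both strands, and no base lay in 2 motifs. The table of windows held 75 of the 80 members, without H2AC12, H3C11, H3C12, H4C1 and H4C3.
H1-1: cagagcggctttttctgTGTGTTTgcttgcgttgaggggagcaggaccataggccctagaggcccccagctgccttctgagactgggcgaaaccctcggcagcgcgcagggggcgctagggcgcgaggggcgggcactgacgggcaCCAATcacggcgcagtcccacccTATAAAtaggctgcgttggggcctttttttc
H1-3: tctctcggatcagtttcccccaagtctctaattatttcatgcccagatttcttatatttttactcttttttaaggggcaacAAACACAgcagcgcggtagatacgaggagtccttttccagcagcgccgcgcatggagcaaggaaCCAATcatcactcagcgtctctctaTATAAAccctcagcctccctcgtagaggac
H1-5: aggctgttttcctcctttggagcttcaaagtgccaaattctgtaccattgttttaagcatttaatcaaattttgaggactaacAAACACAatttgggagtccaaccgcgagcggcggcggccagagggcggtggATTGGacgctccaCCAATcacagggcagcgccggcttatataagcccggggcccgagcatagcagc
H1-2: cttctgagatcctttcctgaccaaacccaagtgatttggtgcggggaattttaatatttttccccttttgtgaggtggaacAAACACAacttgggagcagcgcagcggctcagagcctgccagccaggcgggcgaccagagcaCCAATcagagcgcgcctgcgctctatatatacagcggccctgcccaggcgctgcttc

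The H1 box was found in the windows of all 5 replication-dependent H1 genes, in 3.76% of the 35116 windows of the whole table, and in none of the windows of the replication-dependent H2A, H2B, H3 and H4 genes. It ends 111 bases before the start in H1-5 and 113 before it in H1-3 and H1-2, all on the gene's strand, and lies farther out in H1-1, from 183 to 177 bases before the start, on the opposite strand. The CCAAT box was found in all 5 H1 windows and in 28.0% of all windows. These are matches of letters and not measured binding.

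Among the linker histone genes outside the replication-dependent set, H1-6, H1-7 and H1-8 were undetected on every array. They are known from germ cells and the egg. H1-10, a replication-independent linker histone, gave 9.95 in E8, 9.17 with pyruvate, 9.74 with BMP4, 9.97 with BMP4 plus pyruvate at day 2 and 10.33 at day 6. The pyruvate array was the lowest, 0.78 below E8, while in BMP4 the array with pyruvate was 0.23 above the array without it.

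Of the replication-dependent H2A genes, which encode nucleosome core proteins, H2AC25 gave 7.43 in E8, 7.65 with pyruvate, 7.03 with BMP4, 7.09 with both and 6.12 at day 6. The day 6 array was below the other 4, and 2.48-fold below E8. H2AC20 gave 8.62 in E8, 8.46 with pyruvate, 8.25 with BMP4, 7.74 with both and 7.90 at day 6. It was lower on both arrays of BMP4 plus pyruvate than on the other 3, without passing the size rule in any comparison. The main probe of H2AC18 gave 6.55 in E8, 6.21 with pyruvate, 6.60 with BMP4, 5.84 with both and 7.08 at day 6, which is 2.36-fold higher at day 6 than at day 2 of the same mixture. H2AC18 also has a probe that was undetected on every array. Its near copy H2AC19 gave 6.56, 6.61, 6.19, 6.68 and 6.82 on the arrays in the same order. The day 2 array of BMP4 plus pyruvate was the lowest for H2AC18 and the second highest for H2AC19, so these probes did not follow each other. H2AC17 was detected in E8 alone, at 5.94.

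The H2B genes held the largest positive difference of the replication-dependent genes at day 6, and also a negative one. H2BC12 gave 8.69 in E8, 9.36 with pyruvate, 8.54 with BMP4, 8.65 with both and 10.40 at day 6. Day 6 stood above the other 4 arrays, 3.27-fold above E8 and 3.36-fold above day 2 of the same mixture, and pyruvate alone was the next highest. The second probe of H2BC12 was undetected on the 4 day-2 arrays at 4.78 to 5.20 and was detected at day 6, at 5.95. H2BC21 gave 7.51 in E8, 7.09 with pyruvate, 7.31 with BMP4, 6.43 with both and 7.46 at day 6. It was low on the day 2 array of BMP4 plus pyruvate, and at day 6 was 2.05-fold above that array and 0.05 below E8. H2BC5 gave 6.54 in E8, 7.52 with pyruvate, an undetected 5.67 with BMP4, 6.68 with both and 7.33 at day 6. With BMP4 and pyruvate it was at least 1.74-fold higher than with BMP4 at day 2, and with pyruvate alone it was 0.98 above E8, just short of the size rule. These values are of a single probe, and the other probes of H2BC5 were undetected on every array. H2BC9 gave 7.05 in E8, 6.80 with pyruvate, 7.39 with BMP4, 6.28 with both and an undetected 5.86 at day 6. It was 2.15-fold lower with BMP4 plus pyruvate than with BMP4, and at least 2.26-fold lower at day 6 than in E8. H2BC18 was detected on both arrays of BMP4 plus pyruvate, at 5.70 and 5.95, and gave an undetected 5.84 with BMP4.

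H2BC12, H2BC21 and H2BC5 are on a list of 5 replication-dependent genes known to make a polyadenylated mRNA, and the other 2, H2AC6 and H2BC4, were undetected on every array. At day 6 against day 2 of BMP4 plus pyruvate, 2 of the 3 detected genes passed the size rule upwards, where 13.5% of all genes did, with a median difference of 1.04 over the 3. H2BC21 did not pass it without background correction, with 75th percentile scaling or in the authors' log2 values, which leaves H2BC12. Against E8, H2BC12 was the 1 of the 3 that passed it, where 12.5% of all genes did, and the median was 0.78. The arrays do not tell the polyadenylated form of an mRNA from the stem-loop form. The 200 bases before the start of H2BC12 and H2BC21, with the highest day 6 values relative to day 2 among the H2B genes, are printed beside those of H2BC9, which was lower at day 6 than in E8. They are from RefSeq (GRCh38.p14), written 5′ to 3′ along the gene, for H2BC12 at chr6:27146859-27147058 (minus strand), H2BC21 at chr1:149886683-149886882 (minus strand) and H2BC9 at chr6:26251414-26251613 (plus strand). Capitals mark the octamer (ATTTGCAT), the CCAAT box and the TATA box on either strand.
H2BC12: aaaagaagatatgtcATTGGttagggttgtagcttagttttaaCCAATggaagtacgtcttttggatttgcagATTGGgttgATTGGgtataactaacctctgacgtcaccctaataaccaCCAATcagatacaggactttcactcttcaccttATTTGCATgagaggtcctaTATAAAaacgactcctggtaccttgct
H2BC21: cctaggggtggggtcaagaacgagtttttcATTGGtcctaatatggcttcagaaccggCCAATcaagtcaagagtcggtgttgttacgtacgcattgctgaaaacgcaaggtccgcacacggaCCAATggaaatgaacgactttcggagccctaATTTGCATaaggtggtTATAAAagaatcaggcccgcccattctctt
H2BC9: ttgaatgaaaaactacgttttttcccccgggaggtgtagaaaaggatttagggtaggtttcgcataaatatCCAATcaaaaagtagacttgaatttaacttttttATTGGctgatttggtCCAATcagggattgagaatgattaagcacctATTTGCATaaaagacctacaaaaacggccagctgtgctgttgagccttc

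All 3 windows hold the octamer, which ends 39 bases before the start in H2BC12 and H2BC21 and 42 before it in H2BC9. It was found in 14 of 18 replication-dependent H2B windows, 7 of 16 H2A windows, 1 of 11 H3 windows, none of the H1 and H4 windows and 1.31% of all windows. H2BC12 holds 5 CCAAT boxes, and H2BC21 and H2BC9 hold 3 each. A TATAAA was found in H2BC12 and H2BC21 and in 8.59% of all windows, and these letters are not in the window of H2BC9. H2BC12 and H2BC9, which differed from E8 in opposite directions at day 6, shared the octamer and the CCAAT box.

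Of the 13 replication-dependent H3 genes 3 were detected, none of them on more than 2 arrays. H3C7 was detected in E8, at 5.61, and with pyruvate, at 6.29. It was undetected at 5.72 with BMP4, 5.64 with both and 5.76 at day 6, values above that in E8. H3C6 gave 5.55 in E8 and 5.95 at day 6, the 2 arrays where it was detected, and an undetected 5.73 with BMP4. For these dim probes, detection thus does not give the order of the arrays. H3C13 was detected in E8 alone, at 5.87.

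Of the H4 genes, H4C12 gave 8.54 in E8, 8.55 with pyruvate, 8.12 with BMP4, 7.34 with BMP4 plus pyruvate at day 2 and 6.73 at day 6. The arrays had the same order as for H1-3. Day 6 was 3.50-fold below E8, the largest negative difference among the replication-dependent genes in that comparison. H4C11 gave 6.59 in E8, 6.94 with pyruvate, 6.55 with BMP4, 5.91 with both and 5.99 at day 6, and again the 2 arrays of BMP4 plus pyruvate were the lowest. H4C8 was higher on the 2 day-2 arrays with added pyruvate than on the 2 without it: it gave 6.91 with pyruvate and 6.77 with BMP4 plus pyruvate, against 5.93 in E8 and an undetected 5.74 with BMP4. At day 6 it was undetected at 5.50. Its difference was 0.99 for pyruvate in E8, just short of the size rule, and at least 1.85-fold in BMP4. H4C3 gave 14.29, 14.31, 14.23 and 14.30 on the day-2 arrays and 13.84 at day 6, which was 0.45 below E8. H4C5 was detected in E8 alone, at 5.74.

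The window before H4C12, the gene with the largest negative difference at day 6, is printed from RefSeq (GRCh38.p14) at chr6:27831561-27831760 on the minus strand, 5′ to 3′ along the gene, with its single marked motif, the TATA box, in capitals.
H4C12: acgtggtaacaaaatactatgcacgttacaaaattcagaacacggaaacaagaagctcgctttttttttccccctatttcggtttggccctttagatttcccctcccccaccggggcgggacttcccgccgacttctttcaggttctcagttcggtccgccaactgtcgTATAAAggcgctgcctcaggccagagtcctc

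In contrast to the H1 and H2B windows above, it holds no CCAAT in these 200 bases, as is so for 10 of the 13 H4 windows in the table, where 3 hold it. TATAAA was found in 6 of the 13.

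The 2 macroH2A genes stood out among the variants by their values at day 6. MACROH2A1, whose protein carries a large extra domain and is known from silent chromatin and the inactive X chromosome, gave 11.96 in E8, 12.14 with pyruvate, 12.52 with BMP4, 12.24 with both and 13.55 at day 6. Day 6 was the highest array, 3.0-fold above E8 and 2.47-fold above day 2 of the same mixture. The second probe of MACROH2A1 gave 9.73, 9.61, 10.07, 10.56 and 11.36 in the same order, again with day 6 at the top. Its difference was 1.63 against E8 and 0.80 against day 2. The third probe was undetected on the 4 day-2 arrays, at 4.88 to 5.27, and was detected at day 6, at 8.06, and the fourth was undetected throughout. The probes of this gene therefore agreed in placing day 6 highest where they were detected, and disagreed in size. They disagreed in sign for BMP4 plus pyruvate against BMP4, where the main probe gave -0.28 and the second 0.49.

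MACROH2A2, the paralog with the same kind of domain, gave 10.80 in E8, 10.58 with pyruvate, 11.27 with BMP4, 10.88 with both and 12.38 at day 6. Day 6 was again above the other 4, 3.0-fold above E8 and 2.83-fold above day 2. H3-3B, a gene of the replacement histone H3.3, gave 11.31 in E8, 10.89 with pyruvate, 11.11 with BMP4, 10.25 with both and 11.37 at day 6. Its 2.19-fold difference between day 6 and day 2 came with the lowest value on the day 2 array of BMP4 plus pyruvate, and day 6 was 0.06 above E8. H3-3A, the other H3.3 gene, gave 14.65, 14.80, 14.72, 14.42 and 14.65 with its main probe. Its 3 probes were detected on every array and differed from E8 by 0.18 or less at day 6.

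H2AX, the H2A variant phosphorylated at DNA breaks, gave 8.66 in E8, 8.80 with pyruvate, 8.93 with BMP4, 9.52 with both and 8.41 at day 6. The day 2 array of BMP4 plus pyruvate was the highest and day 6 the lowest, 2.16-fold apart, while day 6 was 0.25 below E8. H2AZ1, a gene of H2A.Z, a variant found at promoters, gave 14.02, 14.23, 14.07, 13.79 and 13.95. H2AZ2, the other H2A.Z gene, gave 6.20, 6.34, 6.20, 5.99 and 6.11. H2AJ, a replication-independent H2A gene, gave 10.31, 10.36, 10.01, 10.14 and 10.18. These 3 genes passed the size rule in no comparison. The plot of the variants by probe shows them beside the macroH2A genes.

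**Figure D2:**
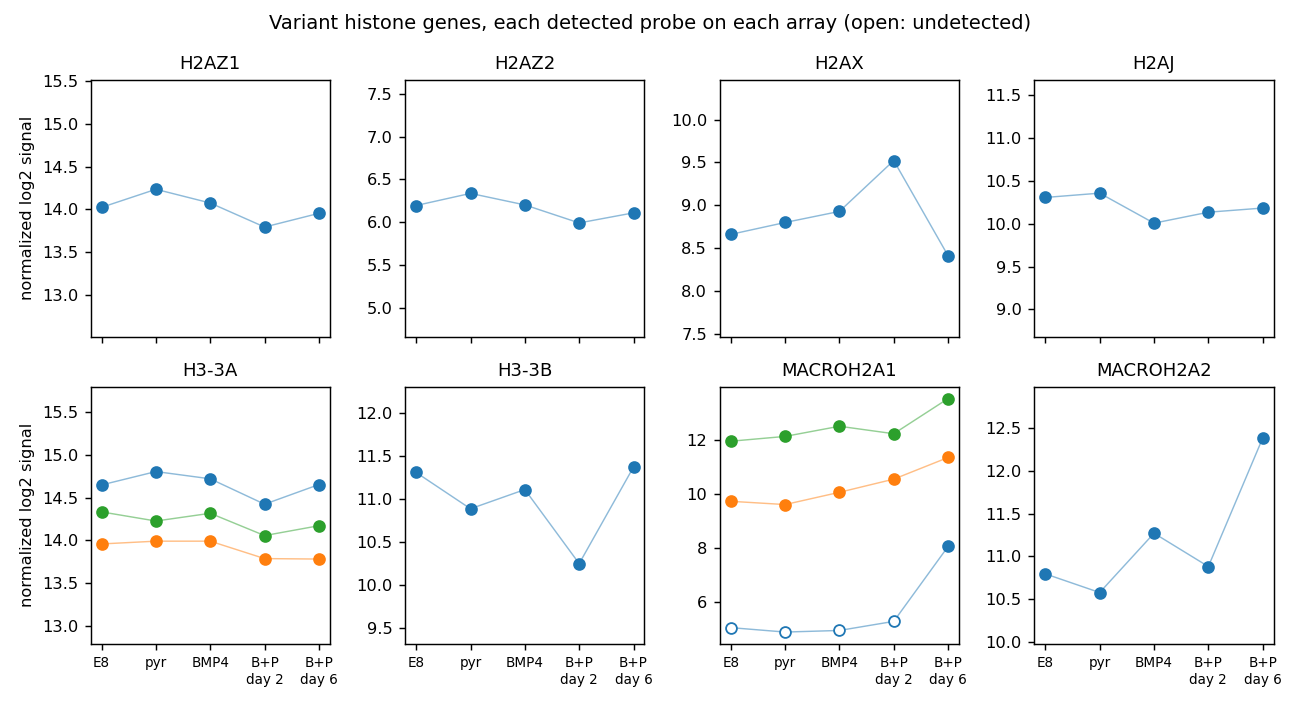
Normalized log2 signal (vertical axis) of each detected probe of the 8 variant histone genes on the 5 arrays (horizontal axis), 1 panel per gene, 1 line per probe and 1 point per array, open where the probe was undetected. The lines only join points of a probe, and the vertical axes cover different levels. MACROH2A1 and MACROH2A2 stand highest at day 6 and H2AX on the day 2 array of BMP4 plus pyruvate.

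The comparison of pyruvate with E8 asks what added pyruvate did without BMP4. No histone gene passed the size rule, against 2.37% of the 11475 genes detected on either array (1.05% higher and 1.32% lower). The 21 replication-dependent genes detected on either array had a median difference of -0.04, with 10 above 0 and 11 below, and all genes had a median of 0.0. Of the members detected on both arrays, H4C8 at 0.99 and H2BC5 at 0.98 lay nearest the threshold. The 8 variants had a median of 0.14 and ran from -0.42 (H3-3B) to 0.21 (H2AZ1). Of the 27 detected S phase genes none passed the size rule either.

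BMP4 was compared with E8 for the response to BMP4 without added pyruvate. No histone gene passed the size rule, against 5.2% of 11559 genes (2.68% higher and 2.52% lower). The median of the 21 detected replication-dependent genes was -0.25, with 17 of 21 below 0, while 51.2% of all genes lay below 0. All 21 were detected in E8 and 13 of them with BMP4. Detection in E8 favoured values below 0, so the count of 17 gives no direction. With the 6 genes that were undetected on the dimmer array placed at their bounds, the median was -0.06. H1-5 and H2BC5 were undetected with BMP4, and were at least 1.53-fold and at least 1.58-fold lower than in E8. The variants had a median of 0.06, with MACROH2A1 at 0.56 and MACROH2A2 at 0.47 as the highest. LSM11, a part of the U7 particle that cuts histone mRNA, gave 6.21 in E8 and was undetected with BMP4, which makes it at least 1.26-fold lower. By its measured value it was the single gene of 14 on the list of histone mRNA transcription and processing to pass the size rule. Over all genes the calls were 310 higher and 291 lower, and 352 higher and 197 lower when arrays were scaled to their 75th percentile in place of quantile normalization.

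The effect of pyruvate in the presence of BMP4 was read from BMP4 plus pyruvate against BMP4, which shares no array with pyruvate against E8. Of the 17 replication-dependent genes detected on either array, H2BC5 and H4C8 were higher and H2BC9 lower, 3 in all, against 6.79% of 11198 genes in either direction (3.72% higher and 3.06% lower). H2BC5 and H4C8 were the same 2 genes that lay just under the threshold for pyruvate in E8. All 3 differences came to less than 2-fold without the background correction, with scaling to the 75th percentile and in the authors' log2 values. The median was -0.14, and -0.02 for all genes. No variant passed the size rule, the median was -0.28, and values ran from -0.86 (H3-3B) to 0.59 (H2AX). Of 27 S phase genes 2 were higher, RRM2 (1.3) and MCM5 (1.18), and none lower, with 12 below 0 and a median of 0.02. Of 22 chaperones and importers the H3.3 chaperone DAXX (1.12) was higher and none lower, with 11 below 0 and a median of 0.01. Of 108 detected small RNAs that carry no poly(A) tail, 17 were lower and 0 higher (median -0.25), and their part in the histone values was not tested.

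Against pyruvate alone, BMP4 plus pyruvate had lower signal for H4C12 (2.31-fold), H1-3 (2.06-fold) and H4C11 (2.05-fold), and higher signal for none. These were 3 of 18 replication-dependent genes, against 5.77% of 11282 genes lower, 6.46% higher and 12.2% called in either direction. The median was -0.66 with 15 of 18 below 0, where all genes had a median of -0.04 and 52.5% below 0. With scaling to the 75th percentile and in the authors' log2 values H4C12 was the 1 gene past the size rule, and without the background correction none was. The variants had a median of -0.28, and none passed the size rule. Over all genes the calls were 729 higher and 651 lower, and 897 higher and 516 lower with scaling to the 75th percentile. Of 112 detected non-polyadenylated small RNAs, such as snoRNAs and U1 RNA, 21 were lower, 2 were higher and 89 did not pass the rule, with a median of -0.39, and their part in the result was not tested.

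Day 6 of BMP4 plus pyruvate was compared with day 2 of the same mixture for the course of differentiation. Here 3 of 18 replication-dependent genes were higher (H2BC12, H2AC18 and H2BC21) and 1 was lower (H4C8, at least 1.87-fold), against 26.5% of 11628 genes in either direction (13.5% higher and 13.0% lower). The share was thus near that of all genes, and the median of 0.11 turned to -0.02 with scaling to the 75th percentile. Of the variants MACROH2A2, MACROH2A1 and H3-3B were higher and H2AX was lower, 4 of 8, with a median of 0.19. Of 27 S phase genes 11 were lower and none higher (median -0.87), led by MCM5 at -2.50 and RRM2 at -2.07. Of 21 histone chaperones and importers 4 were lower, namely IPO4 (-2.28), CHAF1A of the replication-coupled chaperone CAF-1 (-1.70), DAXX (-1.51) and NASP, which holds H3 and H4 in store (-1.36). All 14 detected genes of histone mRNA transcription and processing were below 0 with a median of -0.42, and none passed the size rule. Of 102 small RNAs without a poly(A) tail 20 were lower and 6 higher (median -0.38), and their part was not tested here either. At day 2 97 of them were detected and at day 6 63, which favoured values below 0.

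Day 6 against E8 at day 2 set the longest treatment against untreated stem cells, and shares an array with the preceding comparison. There was no E8 array at day 6, so time in culture and treatment cannot be told apart here. Of 22 replication-dependent genes 6 were lower (H4C12, H1-3, H1-1, H2AC25, H1-5 and H2BC9), against 12.3% of 11992 genes, and 1 was higher (H2BC12), against 12.5%. In either direction 24.8% of all genes were called. Of the 22 genes, 21 were detected in E8 and 14 at day 6, where H1-1, H1-5 and H2BC9 were undetected. Detection in E8 favoured values below 0, so the count of 6 gives no direction for the set. The median was -0.44, and -0.06 with the 8 genes undetected on the dimmer array at their bounds. By family, H1 genes had 3 of 4 lower with a median of -1.35. H1-1 and H1-5 enter that median at undetected day 6 values, and their bounds are at least 2.55-fold and at least 1.55-fold. H4 genes had 1 of 5 lower with all 5 below 0. Of these, H4C5 and H4C8 were undetected at day 6 and are in the set through E8, which favoured values below 0. The H2B genes had 1 higher and 1 lower of 5 with a median of 0.78. MACROH2A1 and MACROH2A2 were the 2 of 8 variants past the size rule, both upwards, and the variants' median was -0.03. H4C12, H2BC12, MACROH2A1 and MACROH2A2 passed it under all 5 alternative ways of processing, and without the background correction H4C12 was the 1 replication-dependent gene that was lower. The looser detection p could not remove a call. The mean of detected probes could not alter H4C12 or MACROH2A2, which have 1 probe each. In the authors' log2 values 4 were lower, without H1-5 and H2BC9, so that 2 of the 4 H1 genes were.

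**Figure D3:**
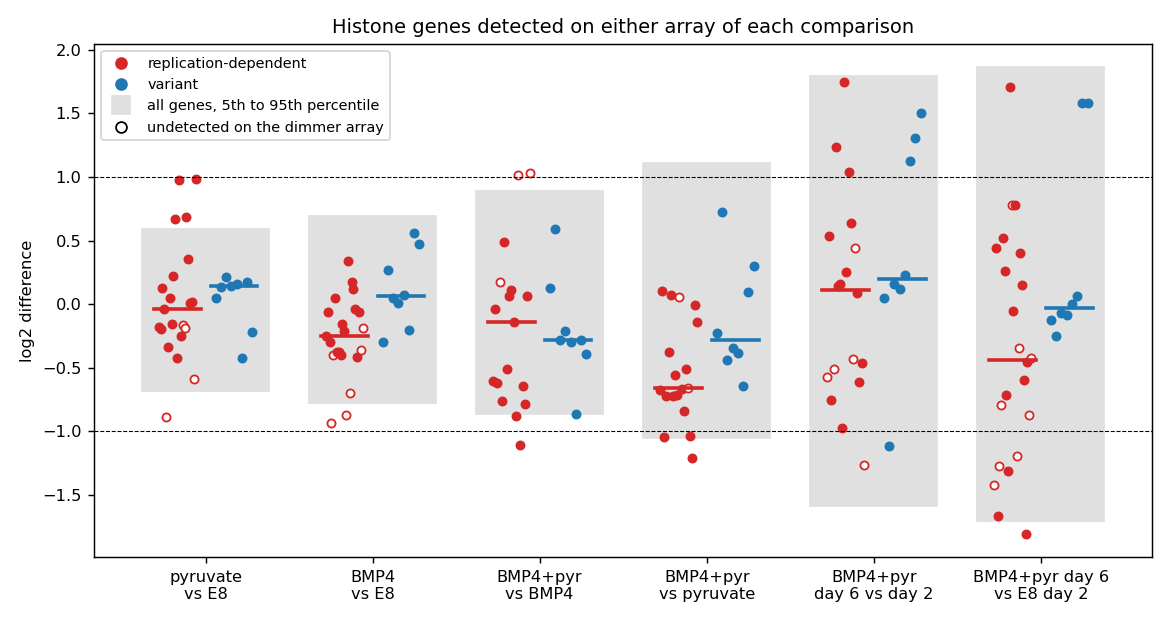
Log2 difference (vertical axis) of each histone gene detected on either array, for the 6 comparisons (horizontal axis), with replication-dependent genes in red, variants in blue, open points for genes undetected on the dimmer array, and grey blocks for the 5th to 95th percentile of all detected genes. Bars are medians and dashed lines the size rule. For pyruvate against E8 H4C8 (0.99) and H2BC5 (0.98) lie just under the upper dashed line and above the grey block, and in the 2 day 6 comparisons all 8 variants lie within it.

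Of the lists around histone supply, the S phase and chaperone lists held genes past the size rule in the same comparison, where 12.3% of all genes were lower. Of 27 S phase genes 8 were lower, 19 did not pass the rule and none was higher, with a median of -0.78, where MCM4 (-1.53), CDT1 (-1.43), MCM5 (-1.41) and MCM2 (-1.3), which load or form the replicative helicase, were the lowest. Of 21 chaperones and importers 5 were lower, 16 did not pass the rule and none was higher (median -0.41). The 5 were NASP (-2.09), CHAF1A (-1.26), IPO4 (-1.22), ATRX, the partner of DAXX (-1.11), and HIRA of the H3.3 chaperone complex, which was undetected at day 6 and at least 1.39-fold lower. Of 14 genes of histone mRNA transcription and processing none passed the size rule, and the median was -0.20. SLBP, whose protein binds the stem-loop of histone mRNA, gave 10.78 in E8, 10.78 with pyruvate, 10.79 with BMP4, 11.08 with both and 11.06 at day 6, and so was 0.28 higher at day 6 than in E8. Of 114 detected non-polyadenylated small RNAs 28 were lower, 5 were higher and 81 did not pass the rule, with a median of -0.58. Of all 326 with a probe, 111 were detected in E8 and 63 at day 6. Detection in E8 thus favoured values below 0, and the count and median give no direction for these RNAs. Their summed signal was 48345.9 in E8 and 41191.6 at day 6, and their part in the histone result was not tested. The plot of these lists puts them side by side.

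**Figure D4:**
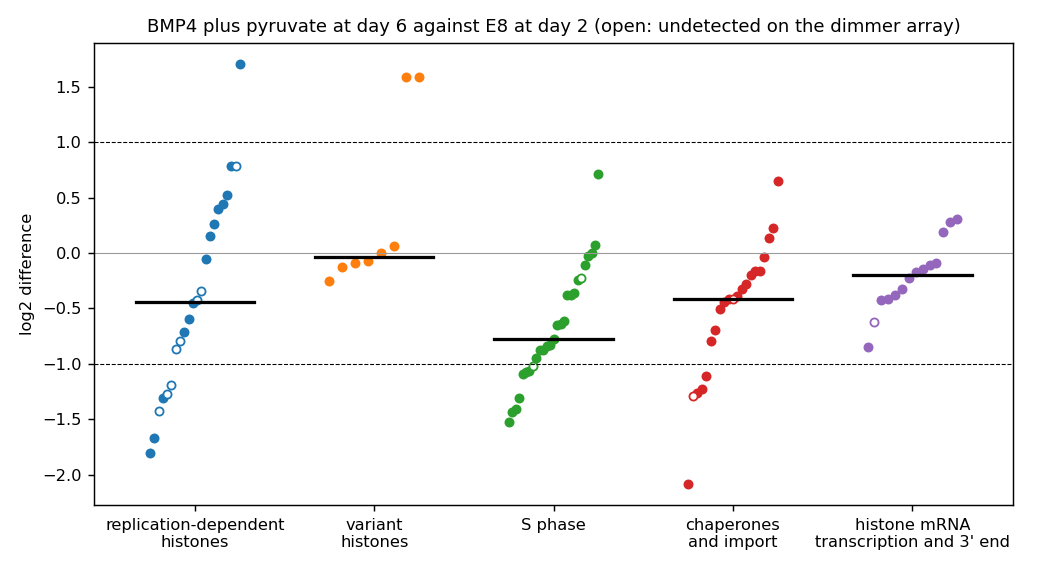
Log2 difference of BMP4 plus pyruvate at day 6 against E8 at day 2 (vertical axis), 1 point per gene detected on either array, grouped by list, open where it was undetected on the dimmer array, with a bar at the median and dashed lines at the size rule. S phase genes (median -0.78) and chaperones (median -0.41) lie mostly below 0, while the variants hold 2 genes, MACROH2A1 and MACROH2A2, that stand well above it.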

How the data were processed

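The array of each of 5 conditions was taken from the treatment named in its labels. Per the file headers, the authors' main table gives a non-normalized intensity for each probe on each array, with a deposited detection p-value beside it. How the authors made their other table, of log2 values, is not given in the sources used here, and it served as an alternative. Intensities were processed with neqc of limma 3.58.1 in R 4.3.3 (normexp background fitted from the detection p-values, offset 16, quantile normalization, log2), a step tested on simulated data. Quantile normalization hides a change in total RNA, and the offset shrinks differences of dim probes. The 30105 probes with 1 symbol in the platform annotation stood for 20041 genes, and each gene was read by its probe with the highest mean. All 94 histone probes matched the symbol of their Entrez gene in RefSeq. For a bound, the value on the brighter array was divided by the floor of the dimmer array (its lowest detected probe), or by the probe's own value there where that was higher. The 6 comparisons share arrays, so their values are given side by side.

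The rule for named genes takes every detected variant, the 12 replication-dependent genes with the largest range over the arrays, the 3 highest and 3 lowest members past the size rule in each comparison, the members whose probes disagree most, and up to 4 genes of each other list per comparison. The text also names other detected members, and leaves some list genes out. Members, lists and rules were chosen with earlier results of these data known. The alternatives were no background correction, scaling to the 75th percentile, the deposited log2 values, a detection p under 0.05, and the mean of a gene's detected probes. Precision is limited by the number of arrays.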

Additional observations from a re-analysis of the deposited data

Results flagged for a closer look

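At day 2 the arrays form a cross of BMP4 and pyruvate, so the difference made by pyruvate can be read in E8 and in BMP4. Among 31 detected histone genes, 2 had pyruvate differences of opposite sign in E8 and in BMP4 that were at least 1 apart on the log2 scale. H1-10 differed by -0.78 in E8 and by 0.23 in BMP4, which puts the difference in BMP4 1.01 above that in E8. H4C11 differed by 0.35 in E8 and by -0.65 in BMP4, which puts the difference in BMP4 at -1.0 relative to that in E8. Each value rests on 1 array per condition, and the difference between the 2 media was not tested. Both genes lie at the edge of the cut of 1. The share of all genes past this cut was not counted, so the count of 2 shows nothing particular to histone genes.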

How the results depend on the processing

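The medians and counts of replication-dependent and variant genes in the 6 comparisons were recomputed under 5 alternatives, 180 values in all, of which 164 stayed within 1.5 times the reported count or, for a median, within a 1.5-fold difference, and 16 moved further. All 16 are counts of genes past the size rule. None of the 36 values with a detection p under 0.05 and none of the 36 with the mean of detected probes moved. The looser detection keeps each gene's value, and the mean can alter only the 3 members with several detected probes. These 2 alternatives therefore say little about stability. The medians were within that tolerance but not stable in size: without background correction those of replication-dependent genes were -0.12 (reported -0.25) for BMP4 against E8, -0.04 (-0.14) for BMP4 plus pyruvate against BMP4, -0.28 (-0.66) against pyruvate, 0.05 (0.11) for day 6 against day 2 and -0.18 (-0.44) for day 6 against E8. For BMP4 plus pyruvate against BMP4, replication-dependent genes were 2 higher and 1 lower, and 0 and 0 without background correction, with 75th percentile scaling and in the deposited log2 values. Against pyruvate, 3 were lower, and 0 without background correction, 1 with scaling and 1 in the deposited values. For day 6 against day 2, 3 were higher, and 1 without background correction and 1 in the deposited values, while 1 was lower, and 0 without background correction, 2 with scaling and 0 in the deposited values. The variants' 1 lower gene there became 0 without background correction. For day 6 against E8, 6 were lower, and 1 without background correction and 4 in the deposited values. Without background correction differences of dim probes are smaller by construction, and over all genes 23 to 1383 genes were called per comparison where 272 to 3082 had been, while in the deposited values 133 to 2597 were. The cause of the other moves was not tested. The median of replication-dependent genes changed sign for day 6 against day 2 (0.11, and -0.02 with scaling) and for pyruvate against E8 (-0.04, and 0.01 with detection at a p under 0.05). No paired analysis was possible because each condition had 1 array, and for the same reason no replicate could be left out.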
